A study of Mus musculus with 15 samples.

Results

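The induced pluripotent stem (iPS) cell line IP14D-101 was compared with the iPS line IP14D-1, on the 3 Affymetrix arrays whose titles name each line, 6 of the 15 arrays of the series. iPS cells are made by returning differentiated cells to a state like that of embryonic stem (ES) cells, and independent lines can differ in how they grow and in which genes they keep on or off. Per the labels, IP14D-101 has the C57x129S2 genetic background and IP14D-1 the B6D2F1 background, and each is 1 line, so line and background cannot be told apart. The other 9 arrays held mouse embryonic fibroblasts (MEF), the ES line CL11 and the iPS line IP20D-3, 3 arrays each and all B6D2F1, which here serve for reference. ES and iPS cells grew on feeder MEF stopped with mitomycin C, with LIF, the cytokine that keeps mouse ES cells undifferentiated. Media with fetal bovine serum and with a serum substitute are both listed, without naming the lines that had them. Whether the lines shared a medium is therefore not known, so medium cannot be told apart from line either, and its part in any difference was not tested. Arrays of a group are biological replicates according to the design text. How the cultures were kept apart is not described, so p values cover the spread between these samples alone.

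Some background helps to read the genes below. In ES cell cultures a pluripotent core of transcription factors, led by Oct4, Sox2 and Nanog, is shared by all lines, while a minority of cells can drift toward primitive endoderm, the first extra-embryonic layer, which is marked by GATA factors and by a basement membrane of laminin and type IV collagen. When amino acids run short or unfolded protein stresses a cell, the integrated stress response raises the transcription factor ATF4, which acts on genes of amino acid supply and on Ddit3, Chac1 and Trib3. Other arms of the unfolded protein response act through ATF6 and XBP1 on chaperones of the endoplasmic reticulum (ER). Imprinted genes are read from the maternal or the paternal copy alone and are known to be prone to change in cultured pluripotent cells.

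Of 18193 genes, 2613 were higher in IP14D-101 (14.4% of all genes) and 2279 were lower (12.5%), at an adjusted p under 0.05 in limma. Of 45037 probe sets, 4282 were higher (9.51%) and 6274 lower (13.9%). Values are log2 of the scaled signal plus 16, and a difference is IP14D-101 minus IP14D-1 with its standard error. Background was a log2 signal of 11.06, the 95th percentile of olfactory receptor probe sets. Where the dimmer line lay below it, "at least N-fold" gives the bound. In 7539 genes (41.4%) the 3 and 3 arrays did not overlap. Among the 12008 genes above background in either line, 21.5% were higher and 17.8% lower. The calls over all genes include 170 genes that lay below background in both lines. Called differences of at least 2-fold numbered 328 higher and 873 lower, and 65 higher genes were above background in IP14D-101 alone against 258 lower genes in IP14D-1 alone.

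The balance of higher and lower calls depends on the scaling of the arrays. Before scaling, the trimmed mean signal of an array was 11100 to 13800 in IP14D-101 and 15300 to 18000 in IP14D-1. The median difference over all genes was -0.04, and it was 0.32 with arrays scaled to one median, 0.12 after quantile normalization and -0.51 without scaling. Higher genes were 53.4% of the calls, against 84.2%, 59.5% and 5.56% under those settings. Among genes above background in either line, the median difference was -0.18 for the 3979 with a mean log2 signal under 13. It was 0.13 for the 904 at 17 and over, so dim genes tended lower and bright genes higher in IP14D-101. Called higher were 6.21% of these dim genes and 36.8% of these bright ones, with 34% at 15 to 17. The part of signal level in the list shares below was not tested. The 3' to 5' actin signal, a sign of RNA integrity, was 1.22 ± 0.0636 in IP14D-101 and 1.37 ± 0.0365 in IP14D-1 (SD, n = 3 each), and its part in the differences was not tested. Arrays correlated at 0.916 to 0.932 within IP14D-101, at 0.932 to 0.938 within IP14D-1 and at 0.889 to 0.92 between the lines.

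**Figure D1:**
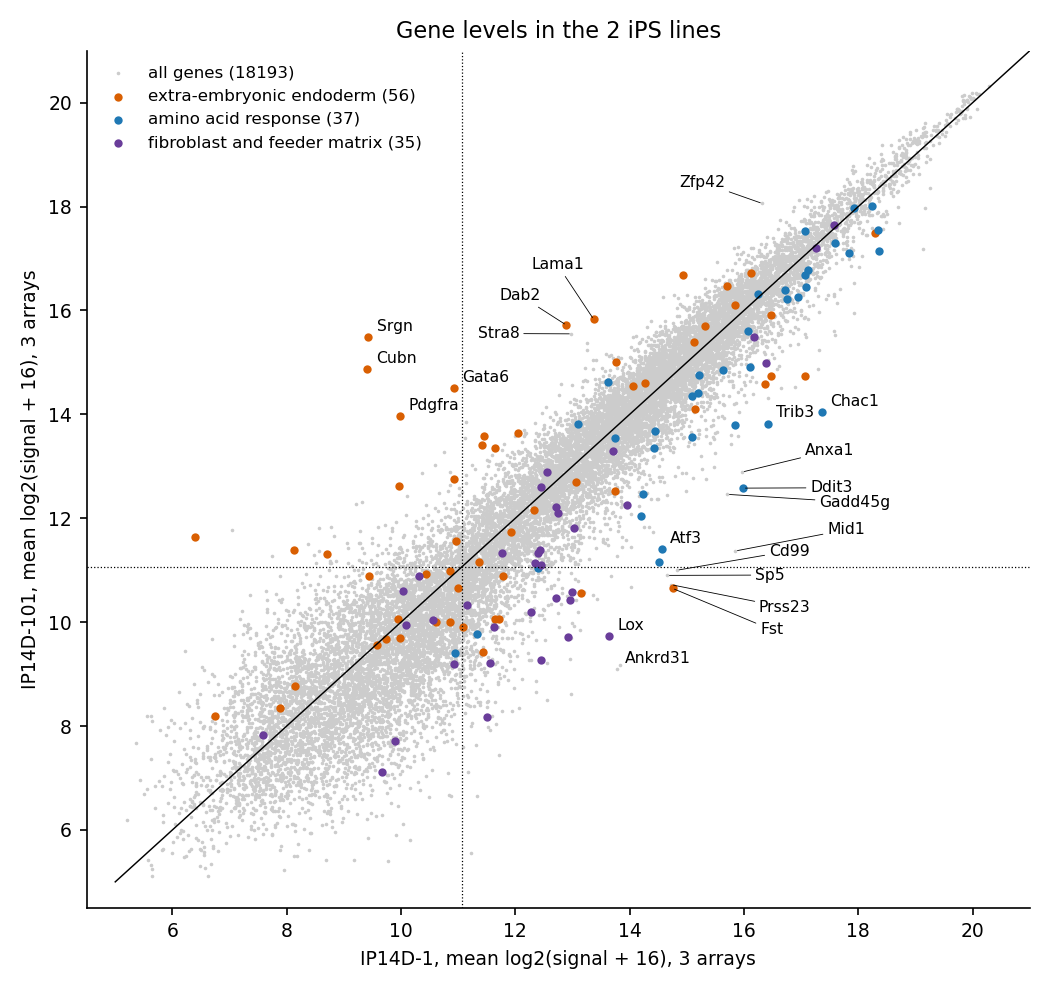
Mean log2(signal + 16) of each of 18193 genes in IP14D-1 (horizontal axis) and IP14D-101 (vertical axis), 3 arrays each, with the line of equality and dotted lines at background (11.06). Srgn, Cubn and Gata6 lie far above the line, and Mid1, Fst, Cd99, Ddit3 and Chac1 far below it.

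The core pluripotency factors stood high in both lines. Pou5f1, which encodes Oct4, had log2 signals of 18.84, 18.79 and 18.99 in IP14D-101 and 18.68, 18.70 and 18.83 in IP14D-1, a difference of 0.14 ± 0.23 (adjusted p = 0.748). Sox2 differed by 0.00 ± 0.12 (adjusted p = 0.996), Klf4 by 0.10 ± 0.10 (0.538) and Myc by 0.20 ± 0.18 (0.493), so 0 of these 4 factors, commonly used for reprogramming, were called, and the arrays of the lines overlapped for each. With arrays scaled to one median 2 of the 4 were higher, and a second Klf4 probe set was called higher under the trimmed-mean scaling (0.38 ± 0.12, adjusted p = 0.0232). Nanog stood at 18.44, 18.47 and 18.39 against 18.07, 18.11 and 18.03, and its difference of 0.36 ± 0.13 did not pass (adjusted p = 0.0575) although the arrays did not overlap. The 7 markers that define ES-like cells here were above background in both lines, and 0 of them were in MEF. The MEF, CL11 and IP20D-3 arrays also enter the standard errors. A fit without them is taken up in the next paragraph, and the part of MEF alone was not tested.

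Around that core, 6 of 33 pluripotency network genes were higher and 5 lower, with a median difference of 0.10, which was -0.38 without scaling. All 33 were above background, and their shares of 18.2% and 15.2% lay below those over all genes above background. This depends on the fit. With the 6 arrays of the lines fitted alone, more of the 33 were higher, as the closing section gives, although higher genes in all fell from 2613 to 2272. Zfp42, the REX1 gene and a classical marker of naive ES cells, had log2 signals of 18.12, 18.09 and 17.99 in IP14D-101 and 16.35, 16.40 and 16.20 in IP14D-1, 3.35-fold higher (1.75 ± 0.37, adjusted p = 0.00202). The 3 IP14D-101 arrays lay above every IP14D-1 array, and above the means of CL11 (16.28) and IP20D-3 (15.98). Gbx2, a LIF-responsive factor, was 3.16-fold higher (1.66 ± 0.19), and Fgf4, which encodes the growth factor that drives ES cells toward commitment, was 2.13-fold higher (1.09 ± 0.09). Tfcp2l1, another factor of the naive state, was higher by 0.88 ± 0.17. Fgfbp1, which encodes a carrier protein of fibroblast growth factors, was 2.67-fold lower (-1.42 ± 0.25) and Rif1, a telomere and replication timing factor, was lower by 1.01 on the log2 scale. The lower 5 also held Tbx3, Klf2 and Klf5. Esrrb was not called through its brightest probe set (0.29 ± 0.30), while another of its probe sets was called higher (0.73 ± 0.19, adjusted p = 0.00875).

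Genes of the LIF pathway divided. Of 28 members, 12 were higher (42.9%) and 6 lower (21.4%), against 21.5% and 17.8% over all genes above background. Their median was 0.26, or -0.22 without scaling. The higher ones included the shared receptor chain Il6st (0.64 ± 0.09), Stat3 itself (0.39 ± 0.09), its feedback inhibitor Socs3 (1.14 ± 0.20) and its target Bcl3 (1.5 ± 0.14). The lower ones included Cebpb (-1.52 ± 0.18) and Socs2 (-0.52 ± 0.08). Among 20 FGF and ERK genes 7 were higher (35%) and 2 lower (10%), with a median of 0.05 that was -0.43 without scaling. The ERK phosphatase genes Dusp4 (-1.38 ± 0.15) and Dusp6 (-0.39 ± 0.12) were the lower ones. Genes of the later, primed epiblast showed 9 lower (39.1%) and 3 higher (13%) of 23, with a median of -0.45. With arrays scaled to one median 5 were lower and 6 higher, with a median of -0.09. Fgf5, their usual marker, was at least 2.25-fold lower, Pim2 was lower by -1.53 ± 0.10 and Dnmt3b by -0.45 ± 0.14, while Dnmt3a was higher by 1.03 ± 0.21.

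Markers of primitive endoderm were the largest rises. Of 56 extra-embryonic endoderm genes, 21 were higher (37.5%) and 11 lower (19.6%), against 21.5% and 17.8% over all genes above background. The median was 0.31 over all 56, or -0.17 without scaling, where 17 were higher and 13 lower. All 7 of the markers that define the layer here were higher, and their summed signal ran from 135000 to 149000 in IP14D-101 against 17500 to 18300 in IP14D-1. In bulk samples, fewer cells of a type and less RNA per cell cannot be told apart.

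The transcription factors that start the lineage were near or below background in IP14D-1. Gata6 had log2 signals of 14.46, 14.38 and 14.70 in IP14D-101 and 10.35, 11.01 and 11.42 in IP14D-1, at least 10.1-fold higher (adjusted p = 7.52e-09). Gata4, its partner, had 13.59, 13.64 and 13.51 against 11.13, 11.56 and 11.67, 4.35-fold higher (adjusted p = 0.00112). Sox17 had 12.60, 12.63 and 12.67 against 11.34, 10.61 and 7.95, at least 2.79-fold higher (adjusted p = 0.00641). The groups did not overlap for any of these factors, and the low group was the more scattered one for Sox17. Sox7, a SOX factor of the same lineage, was 4-fold higher (2.00 ± 0.36), and Foxa2 was at least 1.21-fold higher (adjusted p = 0.0321).

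Several receptors and secreted products of the layer were higher as well. Srgn, which encodes the proteoglycan serglycin, had 15.59, 15.39 and 15.50 in IP14D-101 against 10.91, 9.64 and 7.74, at least 21.6-fold higher (adjusted p = 9.33e-08) and the largest rise by the bound. Cubn, the gene of the uptake receptor cubilin, was at least 14-fold higher and Amn, its membrane partner, was higher by 1.60 ± 0.25. Pdgfra, a receptor used to sort primitive endoderm cells, was at least 7.44-fold higher. Dab2, an endocytic adaptor of the lineage, had 15.70, 15.64 and 15.83 against 12.90, 13.03 and 12.74, 7.11-fold higher (2.83 ± 0.10, adjusted p = 5.5e-12). Every one of these genes had IP14D-101 arrays above all IP14D-1 arrays.

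Basement membrane genes were also higher. Lama1, the laminin chain of early embryos, was 5.47-fold higher (2.45 ± 0.16), Col4a1 3.36-fold (1.75 ± 0.09) and Col4a2 by 1.25 ± 0.15, and the other laminin chains Lamb1 (0.60 ± 0.10) and Lamc1 (0.77 ± 0.09) were higher as well. Some members of the list were lower. Fst, the activin antagonist follistatin, was at least 12.9-fold lower, Krt8 3.42-fold lower (-1.77 ± 0.14), Krt18 lower by -1.74 ± 0.10 and Apoe by -0.81 ± 0.12. Hnf4a, a factor of visceral endoderm, was at least 1.57-fold lower through the 1 of its 4 probe sets above background. The others differed by 1.13, 0.72 and 0.14 and were not called, so its direction is uncertain.

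The ES line held these markers too. Gata6 had a mean of 14.91 in CL11 and 10.96 in IP20D-3, Cubn 15.12 and 9, Dab2 15.96 and 12.33, and Srgn 16.70 and 8.17. The sum of the 7 defining markers was 177000 to 182000 in CL11 and 13300 to 15900 in IP20D-3. Of the 32 called endoderm genes above background, 28 had a CL11 mean nearer IP14D-101 and 27 an IP20D-3 mean nearer IP14D-1. MEF arrays also held Gata6 (13.96), Pdgfra (14.43) and Dab2 (16.02) but Sox7, Gata4 and Cubn lay below background there.

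**Figure D2:**
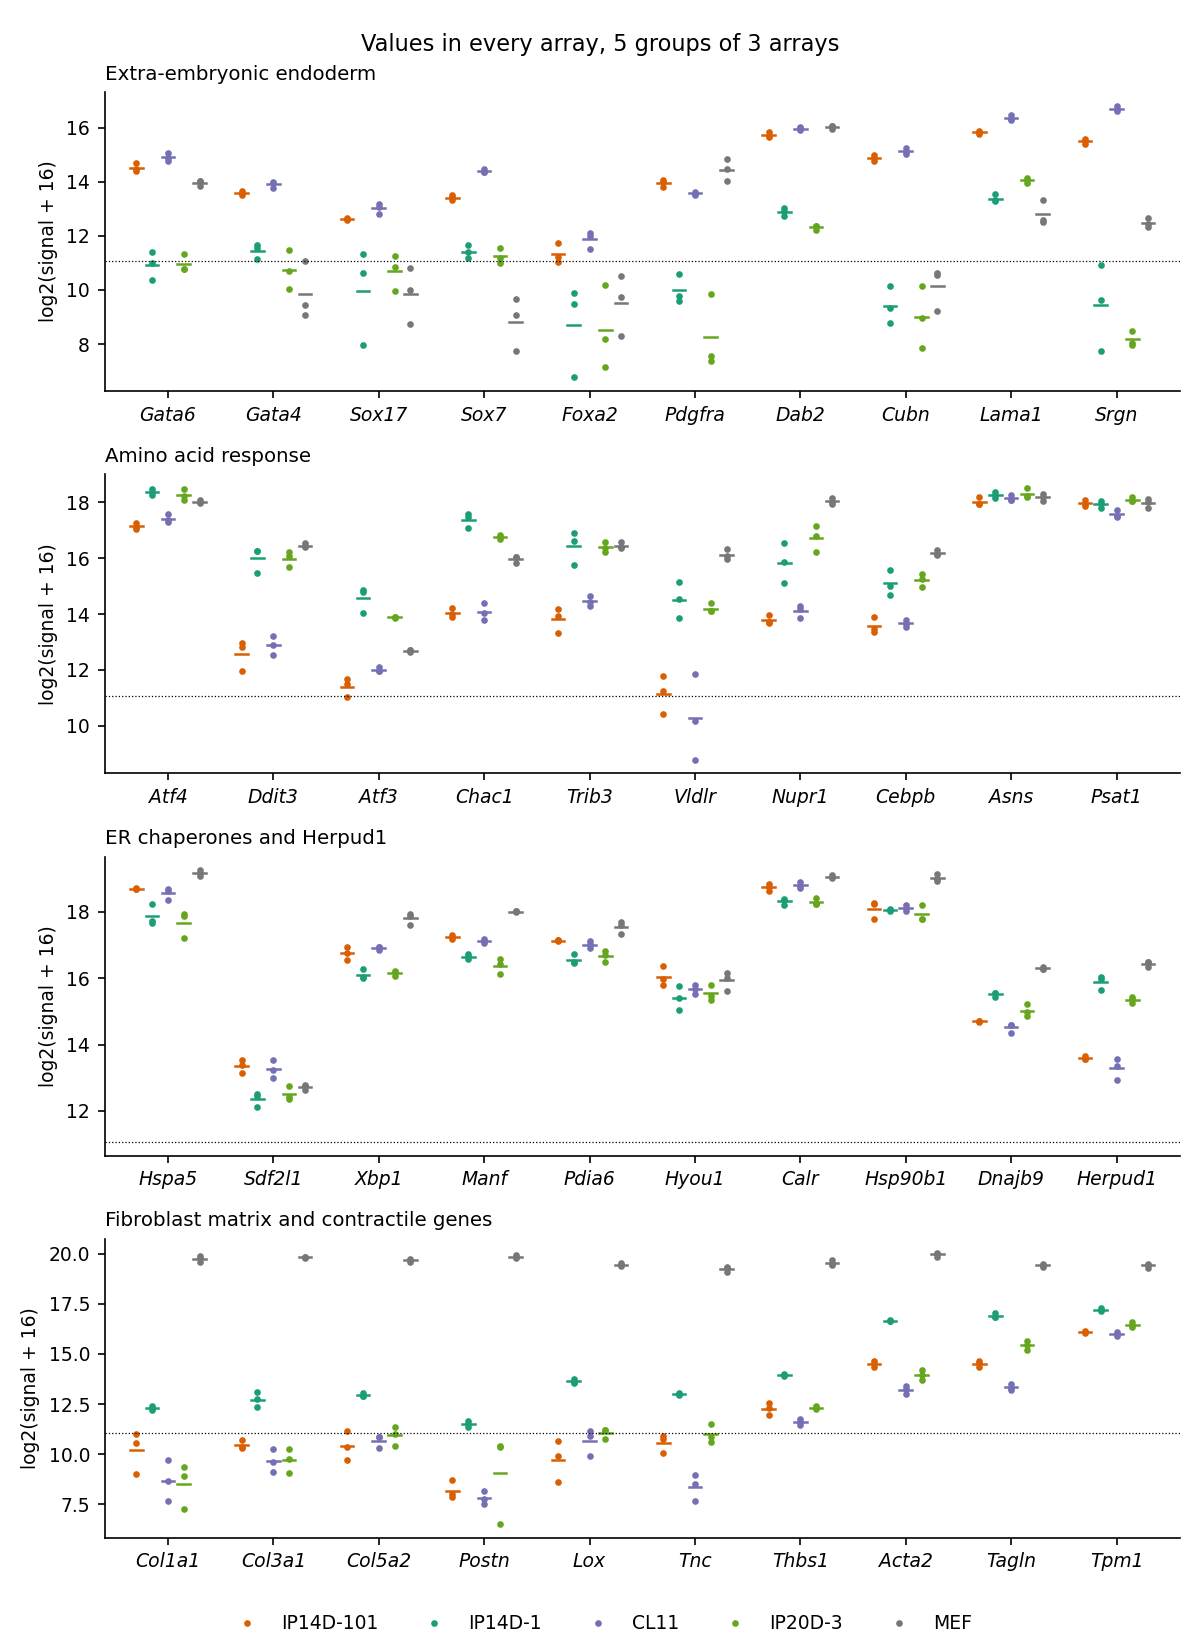
Log2(signal + 16) of 10 genes of each of 4 groups on every array, with a bar at the mean of 3 arrays and a dotted line at background (11.06). In the top panel IP14D-101 and CL11 lie above IP14D-1 and IP20D-3, in the second panel IP14D-1 and IP20D-3 lie above them for all but Asns and Psat1, in the third Herpud1 and Dnajb9 are lower in IP14D-101 than in IP14D-1, and in the bottom panel IP14D-1 is the highest of the ES and iPS lines.

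Genes of the integrated stress response were lower in IP14D-101. Of 37 amino acid response genes 26 were lower and 3 higher, with a median of -0.77. The median kept its sign under every scaling, and 15 were lower with arrays scaled to one median. Atf4 had log2 signals of 17.04, 17.10 and 17.27 in IP14D-101 and 18.46, 18.37 and 18.27 in IP14D-1, 2.35-fold lower (-1.23 ± 0.10, adjusted p = 8.07e-08), with no overlap.

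The stress effectors below Atf4 changed by larger amounts. Ddit3, which encodes the proapoptotic factor CHOP, had 12.81, 11.96 and 12.98 against 16.24, 16.27 and 15.46, 10.6-fold lower (-3.41 ± 0.24). Chac1, an enzyme that degrades glutathione, had 14.01, 13.89 and 14.22 against 17.46, 17.57 and 17.06, 9.99-fold lower (-3.32 ± 0.14). Atf3, an early partner factor, was 8.97-fold lower (-3.16 ± 0.21). Trib3, a pseudokinase that restrains the response, was 6.07-fold lower (-2.60 ± 0.23), and Vldlr, a lipoprotein receptor, 10.3-fold lower (-3.36 ± 0.51). None of these genes had an IP14D-101 array reaching the lowest IP14D-1 array.

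Genes of amino acid supply moved less. The transporter genes Slc38a2 (-0.79 ± 0.07), Slc3a2 (-0.72 ± 0.11) and Slc7a5 (-0.39 ± 0.11) and the folate enzyme gene Mthfd2 (-0.68 ± 0.12) were lower. Asns, the asparagine synthetase gene, differed by -0.22 (adjusted p = 0.13) and Psat1, of serine synthesis, by 0.05 (adjusted p = 0.794), and neither was called. Phgdh, the first enzyme of serine synthesis, was higher by 0.47 ± 0.10, beside Cbs and Fbxo31. In CL11 and IP20D-3, Ddit3 had means of 12.88 and 15.98, Chac1 14.07 and 16.76, and Atf4 17.42 and 18.25. CL11 was nearer IP14D-101 in 25 of 29 called genes, and IP20D-3 nearer IP14D-1 in 27.

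Chaperones of the ER were more often higher than lower. Of 36 ER chaperone and unfolded protein response genes 17 were higher and 5 lower, with a median of 0.31. That direction held with the other scalings but not without scaling, where the median was -0.17, with 0 higher and 13 lower. Without IP14D-1 replicate 2, 11 were higher. Hspa5, the gene of the main ER chaperone BiP, had 18.69, 18.69 and 18.72 in IP14D-101 against 17.74, 17.68 and 18.24, 1.76-fold higher (0.81 ± 0.16, adjusted p = 0.000981). The 3 IP14D-101 arrays lay above all of IP14D-1, and IP14D-1 replicate 3 was the nearest to them. Sdf2l1, an ER chaperone partner, was higher by 0.99 ± 0.19 and Xbp1, a factor of the unfolded protein response, by 0.65 ± 0.10. Herpud1, which works in ER degradation, was 4.93-fold lower (-2.30 ± 0.13) and stood at 13.28 in CL11 and 15.35 in IP20D-3. The lower 5 also held Dnajb9, Atf6, Selenok and Derl1, although another Derl1 probe set was called higher (0.47 ± 0.10).

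The promoter sequences show how those lists differ by letters alone. RefSeq promoters of build GRCm38.p6, from 250 bases before a gene's start to 50 after it, were searched on both strands. The composite element bound by ATF4 with C/EBP factors was searched as TGATGNAA, which reads TTNCATCA on the other strand. It was found in 11 of 33 amino acid response promoters (33.3%), in 3.23% of ER promoters and in 4.51% of the 27025 genes with a promoter. The ER stress element, CCAAT and CCACG with 9 bases of any kind between them, was in 10 of 31 ER promoters (32.3%), in 0 of 33 amino acid response promoters and in 0.137% of all. The following sites, with the element in capitals, come from genes named above and from Pdia6, which encodes an ER disulfide isomerase and was higher by 0.58 ± 0.10. They are shown because Herpud1, an ER gene, is the only ER list member with the first element. A match is a description of letters and not of binding. Since each list gathers genes of the response in question, a larger share of its own element is no independent support.
Chac1, chr2:119351033-119351072: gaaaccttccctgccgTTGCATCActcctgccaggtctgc
Atf3, chr1:191183420-191183459: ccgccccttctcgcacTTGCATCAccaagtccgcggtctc
Vldlr, chr19:27216804-27216843: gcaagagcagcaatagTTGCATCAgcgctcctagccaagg
Herpud1, chr8:94386301-94386340: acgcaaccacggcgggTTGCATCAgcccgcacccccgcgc
Hspa5, chr2:34772009-34772059: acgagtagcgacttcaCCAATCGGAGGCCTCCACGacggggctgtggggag
Pdia6, chr12:17266475-17266525: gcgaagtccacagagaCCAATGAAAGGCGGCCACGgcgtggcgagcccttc
Sequences are written along the gene's strand, and Atf3 lies on the minus strand. In Chac1 the element begins 193 bases before the start, in Atf3 and Herpud1 110 and 112 bases before it, and in Hspa5 65 bases before it.

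Read by the letters, the amino acid response genes with the ATF4 element had a median difference of -2.05, with 8 of 11 lower. The 22 without it had a median of -0.66, with 14 lower and 3 higher. ER genes with the ER stress element had a median of 0.40, with 6 of 10 higher, and the 21 without it had a median of 0.29, with 9 higher and 3 lower. No test was made of these splits, since the lists and letters were chosen with earlier results known. Asns has the ATF4 element (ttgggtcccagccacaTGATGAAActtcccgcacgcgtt, chr6:7693210-7693248) and was not called, while Ddit3 has no match in this window and was among the largest falls.

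Gadd45g, a growth arrest gene, had 12.69, 12.31 and 12.38 against 15.82, 15.49 and 15.83, 9.54-fold lower (-3.25 ± 0.12). Of 32 immediate early and serum response genes 13 were lower (40.6%) and 4 higher (12.5%), with a median of -0.38. With arrays scaled to one median the list had no direction, with 9 lower and 9 higher and a median of -0.01. Among them Klf6 was lower by -1.67 ± 0.15 and Jun by -1.03 ± 0.23, while Dusp1 (0.68 ± 0.13) and Ier3 (1.12 ± 0.14) were higher. Of 31 lysosome and autophagy genes 12 were lower (38.7%) and 4 higher (12.9%), with a median of -0.24, which was 0.12 with arrays scaled to one median. The shares over all genes above background were 17.8% lower and 21.5% higher.

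Lipid synthesis genes were higher. Of 20 cholesterol synthesis genes 16 were higher and 0 lower, with a median of 0.69, and the median stayed positive under every scaling (0.21 without any, where 7 were higher and 1 lower). Dhcr7, the last enzyme of the pathway, had 15.34, 15.46 and 15.70 in IP14D-101 against 14.05, 13.97 and 14.32, 2.62-fold higher (1.39 ± 0.14, adjusted p = 1.43e-06), with no overlap. Fdps was 2.29-fold higher (1.2 ± 0.14), Mvd by 1.05 ± 0.13, and Srebf2, the factor that governs the pathway, by 1.03 ± 0.11. Dhcr7 had means of 14.37 in CL11 and 14.32 in IP20D-3, both near IP14D-1. For the 16 called genes, IP20D-3 was nearer IP14D-1 in 15 and CL11 nearer IP14D-101 in 5.

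Fatty acid synthesis showed 13 higher and 1 lower of 21, with a median of 0.64. Scd1, the desaturase that makes oleic acid, was 2.78-fold higher (1.48 ± 0.15), Fads2 by 1.10 ± 0.11, Fasn by 0.87 ± 0.12 and Acaca by 0.89 ± 0.12. Acsl4 was the lower one (-0.65 ± 0.16). Of the 14 called, CL11 was nearer IP14D-101 in 12 and IP20D-3 nearer IP14D-1 in 11.

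Hypoxia and glycolysis genes were higher too, 21 of 34 against 2 lower, with a median of 0.49 that stayed positive under every scaling (0.02 without any, where 10 were higher and 7 lower). Egln3, an oxygen sensor, had 14.78, 15.04 and 15.28 against 13.26, 12.90 and 13.92, 3.2-fold higher (1.68 ± 0.26). P4ha1, a collagen hydroxylase, was 3.2-fold higher (1.68 ± 0.13), Bnip3, of mitochondrial turnover, 2.60-fold (1.38 ± 0.15), and the lactate exporter Slc16a3 by 1.51 ± 0.19. Hk2, which opens glycolysis, was higher by 1.10 ± 0.10. Ldha, which makes lactate, was higher by 0.46 ± 0.09, and it was -0.02 without scaling. The lower pair were Pfkfb3 (-1.46 ± 0.22) and Vegfa (-0.70 ± 0.16). The core of the hypoxia element, ACGTG or CACGT, was in 23 of 31 of these promoters (74.2%) and in 21.8% of all. It was also in 41.9% of ER promoters and 39.4% of amino acid response promoters. The 23 hypoxia and glycolysis genes with the core had a median of 0.72 and the other 8 of 0.31.

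Oxidative phosphorylation and cell cycle genes showed smaller shifts. Of 44 respiratory chain genes 24 were higher and 2 lower, with a median of 0.28. Atp5g1 had the largest difference (0.72 ± 0.09). Of 52 cell cycle genes 29 were higher and 6 lower, with a median of 0.26, led by the thymidine kinase gene Tk1 (1.12 ± 0.09) and the mitotic kinase gene Aurkb (1.03 ± 0.10), while Tyms, of thymidylate synthesis, was lower by -0.98 ± 0.22. Mki67 differed by -0.06 and was not called. Without scaling both medians were below 0, at -0.20 and -0.22, and under the other scalings they were above it. Over all genes above background, 34% at a mean log2 signal of 15 to 17 and 36.8% at 17 and over were higher.

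**Figure D3:**
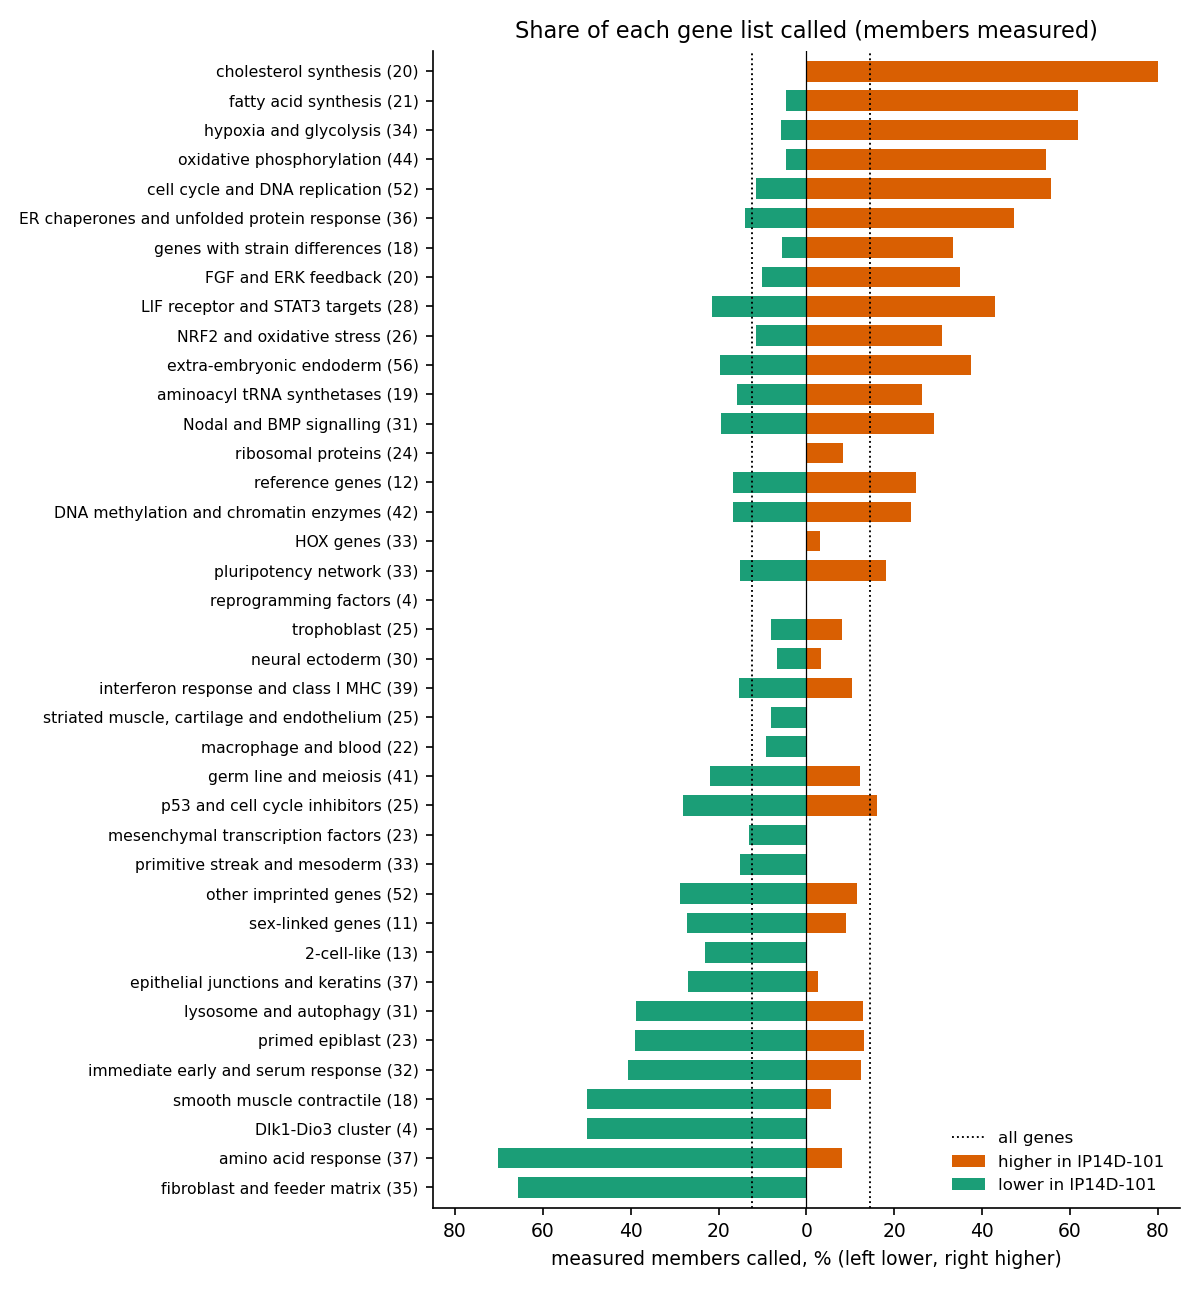
Share of the measured members of each of 39 gene lists called higher (right) or lower (left) in IP14D-101, with dotted lines at the shares over all genes (14.4% higher, 12.5% lower). All genes here include 6185 below background in both lines. Cholesterol synthesis has the largest higher share, 16 of 20, and the amino acid response (26 of 37) and fibroblast matrix (23 of 35) lists the largest lower shares.

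Fibroblast and contractile genes were lower in IP14D-101. Of 35 fibroblast and feeder matrix genes 23 were lower and 0 higher, with a median of -1.21, which stayed below 0 under every scaling, with 18 lower and 2 higher under median scaling. Of the 35, 27 were above background in IP14D-1 and 16 in IP14D-101. Of the 23 lower genes, 20 were above background in a line. Lox, the enzyme that crosslinks collagen, had 9.90, 10.66 and 8.62 against 13.60, 13.56 and 13.76, at least 5.98-fold lower (adjusted p = 8.15e-07). Col1a1, the main fibroblast collagen, had 10.56, 9.01 and 11.01 against 12.29, 12.18 and 12.38, at least 2.33-fold lower. Tnc and Col3a1 were at least 3.8-fold and 3.16-fold lower. The summed signal of the list was 2.97% to 3.35% of the MEF sum in IP14D-101 and 4.08% to 4.14% in IP14D-1, against 3.86% to 4.15% in CL11 and 3.25% to 3.5% in IP20D-3. For the 6 defining markers it was 0.202% to 0.234% and 0.564% to 0.585%, with 4 of 6 lower, against 0.181% to 0.204% in CL11 and 0.178% to 0.273% in IP20D-3. The part of feeder cells in these differences was not tested.

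Of 18 smooth muscle contractile genes 9 were lower and 1 higher, with a median of -0.37 that was 0.00 with arrays scaled to one median. Tagln, the SM22 gene, had 14.54, 14.34 and 14.67 against 16.84, 16.85 and 17.02, 5.23-fold lower (-2.39 ± 0.11). Acta2, smooth muscle actin, was 4.43-fold lower (-2.15 ± 0.12) and Tpm1, a tropomyosin, by -1.11 ± 0.08. Both reference lines often lay nearer IP14D-101 here. Of 20 called fibroblast genes above background, CL11 was nearer IP14D-101 in 18 and IP20D-3 nearer IP14D-1 in 2, and for 10 called contractile genes the counts were 10 and 3.

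Several of the largest falls had that same placing. Prss23, a secreted protease, had 14.90, 14.64 and 14.64 in IP14D-1 and was at least 11.1-fold lower in IP14D-101, with CL11 and IP20D-3 means of 10.34 and 10.94. Sp5, a transcription factor induced by Wnt signals, had 11.02, 10.78 and 10.91 against 14.68, 14.41 and 14.89 and was at least 12.1-fold lower, with 10.51 in CL11 and 11.20 in IP20D-3. Ptgs2, which makes prostaglandins, was at least 6.80-fold lower, and Anxa1, a phospholipid-binding protein gene, 8.46-fold lower (-3.08 ± 0.12). For these genes IP14D-1 lay above each of the other ES and iPS lines. Fst had 14.77, 14.57 and 14.92 in IP14D-1 against a mean of 11.91 in CL11 and 12.75 in IP20D-3.

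Signals of the Nodal and BMP families divided by member. Of 31 genes 9 were higher (29%) and 6 lower (19.4%), against 21.5% and 17.8% over all genes above background. Without scaling 1 was higher and 12 lower. The activin subunit gene Inhbb was higher by 1.58 ± 0.13 and Inhba was at least 3.27-fold lower. The BMP targets Id2 (-1.71 ± 0.12) and Id3 (-1.77 ± 0.15) were lower, and Id1 was not called (0.19, adjusted p = 0.441). Of 33 primitive streak and mesoderm genes 5 were lower, Sp5 among them, and 0 higher. The lower share was 15.2%, near the 12.5% over all genes. Kdr, a receptor of early mesoderm, differed by -1.70 and did not pass (adjusted p = 0.0529).

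Some keratin, desmosome and junction genes were lower. Of 37 genes listed for epithelial junctions and keratins, with the N-cadherin gene Cdh2 among them, 10 were lower and 1 higher. The median was -0.22, which was 0.14 with arrays scaled to one median. Without IP14D-1 replicate 2, 6 were lower. Dsp, the desmosome gene desmoplakin, was lower by -2.22 ± 0.23 and Krt19 at least 3.40-fold. Cldn4, a claudin of tight junctions, was lower by -0.55 ± 0.16, and Cdh2, N-cadherin, by -1.94 ± 0.17. Cdh1, E-cadherin, differed by -0.26 (adjusted p = 0.376) and Epcam by 0.39 (adjusted p = 0.229). Krt7 (-0.56), Krt42 (-0.05) and the desmosome genes Dsg2 (-0.24) and Jup (-0.22) were not called either, although 1 of 6 Dsg2 probe sets was called lower.

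Imprinted genes held some of the clearest differences between the lines. Of 52 imprinted genes outside the Dlk1-Dio3 cluster 15 were lower (28.8%) and 6 higher (11.5%). Over all genes above background 17.8% were lower and 21.5% higher. The median difference of the 52 was -0.36. Under median scaling the median was 0.00, with 9 lower and 11 higher. Peg3, a zinc finger gene read from the paternal copy, had 15.70, 15.67 and 15.19 in IP14D-101 against 17.52, 17.62 and 17.61 in IP14D-1, 4.19-fold lower (-2.07 ± 0.12, adjusted p = 1.79e-09). Usp29, its neighbour on chromosome 7, had 7.97, 8.02 and 7.81 against 12.20, 11.23 and 11.22 and was at least 1.40-fold lower. The other lines lay nearer IP14D-1, with Peg3 at 17.22 in CL11 and 17.51 in IP20D-3 and Usp29 at 10.89, just below background, and 11.45.

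Grb10, an adaptor that restrains growth factor signalling, had 14.58, 14.83 and 14.79 against 17.03, 17.09 and 17.06, 5.03-fold lower (-2.33 ± 0.08, adjusted p = 5.5e-12), against 16.49 in CL11 and 17.13 in IP20D-3. All 3 of its probe sets were lower. Besides Peg3, other paternally expressed genes were lower: Plagl1 (-1.46 ± 0.12), Impact (-1.31 ± 0.08), Kcnq1ot1 (-1.48 ± 0.30), Mkrn3 (-1.2 ± 0.20) and Nap1l5, at least 1.73-fold. For Impact and Plagl1, CL11 lay below IP14D-101, at 14.96 and 12.54. Mest, also paternally expressed, was higher (0.87 ± 0.09), as was the maternally expressed growth inhibitor gene Cdkn1c (0.59 ± 0.19), while Igf2 was not called (-0.23, adjusted p = 0.244). The largest-spread probe set of Peg3, in place of its brightest, differed by 0.24 (adjusted p = 0.913), and 3 of its 5 probe sets were above background and all 3 of those were lower.

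The Dlk1-Dio3 cluster, whose noncoding RNAs are silent in some iPS lines, was on in both. Meg3 had 16.43, 16.56 and 15.85 against 17.26, 17.34 and 17.28, 2.02-fold lower (-1.01 ± 0.12, adjusted p = 1.04e-05), and all 11 of its probe sets were lower. Mirg was lower by -0.75 ± 0.16, while Rian (-0.53, adjusted p = 0.177) and Dlk1 (-0.32, adjusted p = 0.292) were not called. Among the 4 probe sets of Rian 1 was called lower. In IP20D-3 the mean of Meg3 was 13.37 and in CL11 16.39, so IP14D-101 lay beside the ES line and IP14D-1 above it.

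**Figure D4:**
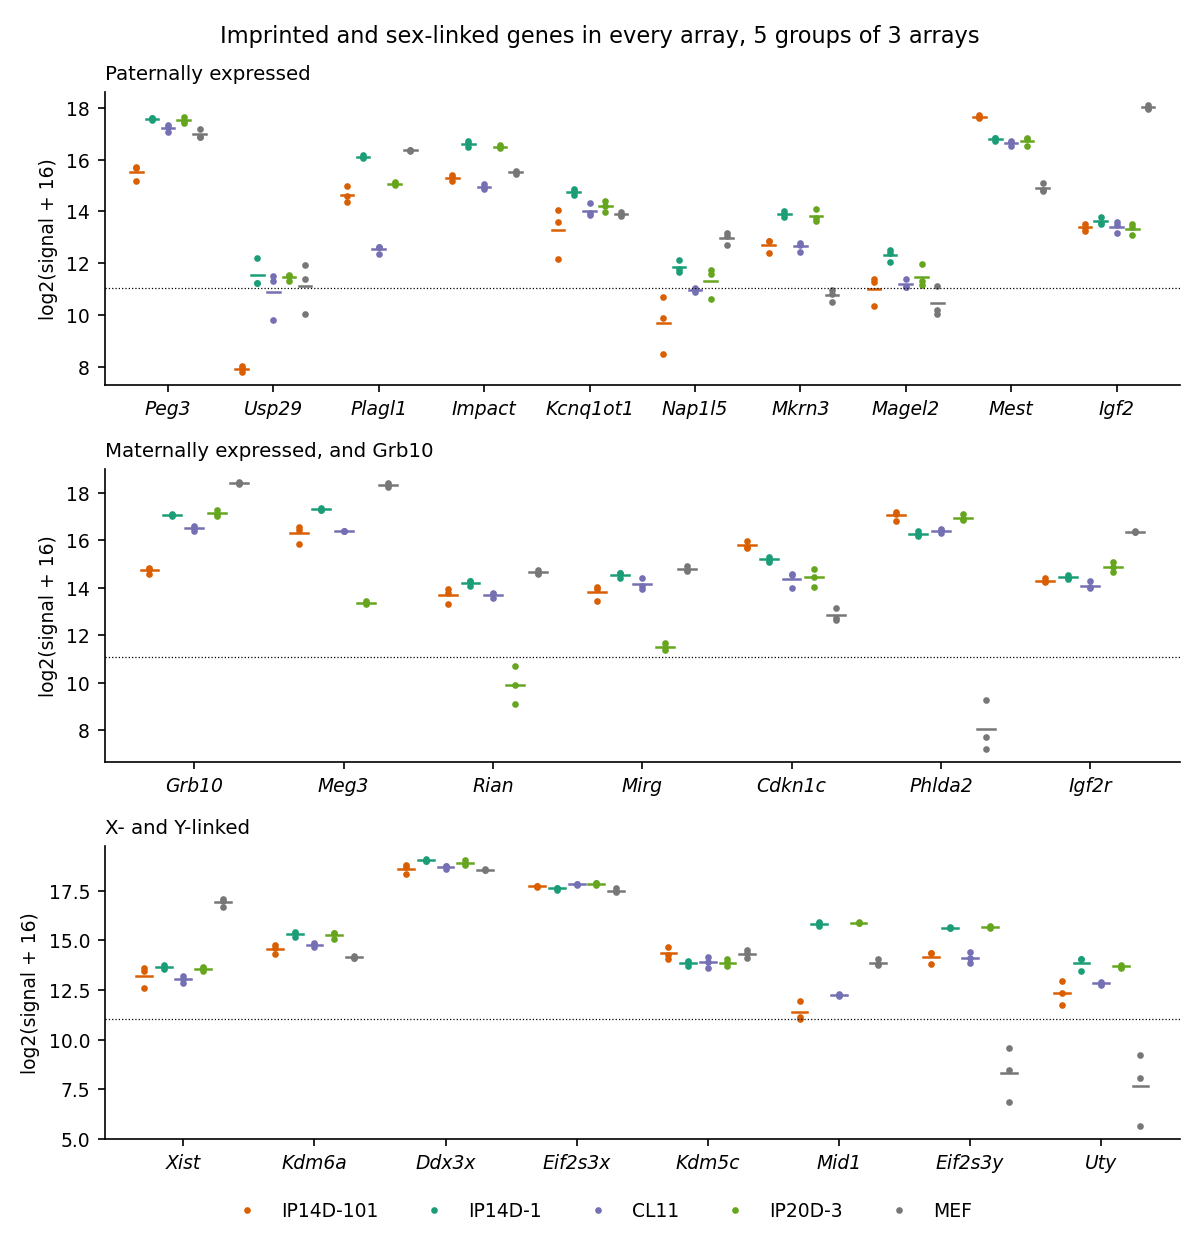
Log2(signal + 16) of imprinted and sex-linked genes on every array, with a bar at the mean of 3 arrays and a dotted line at background (11.06). Peg3, Usp29 and Grb10 are lowest in IP14D-101 among the 5 groups, and Mid1 is low in IP14D-101 and CL11 and near 15.9 in IP14D-1 and IP20D-3.

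X-linked genes were lower as a group than autosomal ones. Of 393 X-linked genes above background in either line 34.4% were lower and 9.92% higher, with a median difference of -0.25. Of 11567 autosomal genes 17.2% were lower and 22.0% higher, with a median of 0.04. Median levels were alike (13.99 and 14.04), and in each of 4 ranges of level the X-linked share of lower genes (27.6% to 41.0%) exceeded the autosomal one (12.5% to 19.3%). No single autosome had a median beyond -0.12 to 0.13.

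On each array, the X-linked median less the autosomal median, each gene set against its mean over the 6 arrays, was -0.11, -0.10 and -0.23 in IP14D-101 and 0.17, 0.19 and 0.13 in IP14D-1. The groups did not overlap and differed by -0.31. CL11 arrays stood at -0.11, -0.11 and -0.13 and IP20D-3 arrays at 0.10, 0.06 and 0.04. After quantile normalization the difference was -0.30. Scaling an array by one factor cannot move this index. It was formed after the chromosome medians had been seen and is a description with no test.

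The X-linked gene with the largest fall was Mid1, which encodes a microtubule-associated ubiquitin ligase. It had 11.14, 11.94 and 11.03 in IP14D-101 against 15.75, 15.92 and 15.88 in IP14D-1, 22.3-fold lower (-4.48 ± 0.18, adjusted p = 1.89e-11), with means of 12.26 in CL11 and 15.88 in IP20D-3. Of its 3 probe sets 1 was above background. Kdm6a (-0.76 ± 0.12) and Ddx3x (-0.43 ± 0.10) were lower, and Kdm5c was higher (0.49 ± 0.17). Of the 8 Kdm5c probe sets above background 2 were called higher and 2 lower, so its direction is uncertain. Xist, the RNA that silences an X chromosome in female cells, had 13.60, 13.45 and 12.62 against 13.55, 13.68 and 13.77, a difference of -0.44 that was not called (adjusted p = 0.112) and with arrays that overlapped. Its mean was 16.92 in MEF. The Y-linked gene Eif2s3y was above background in both lines, with 14.37, 14.38 and 13.82 against 15.61, 15.66 and 15.62, 2.71-fold lower (-1.44 ± 0.41, adjusted p = 0.015). Uty differed by -1.51 through its brightest probe set (adjusted p = 0.0666), and 2 of its 4 probe sets above background were called lower.

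Germ line genes went both ways. Of 41 members 9 were lower (22.0%) and 5 higher (12.2%), against 17.8% and 21.5% over all genes above background. Their median was -0.24. Under median scaling 5 were lower and 10 higher with a median of 0.12, and after quantile normalization 6 and 10 with a median of 0.00. Stra8, the gene that opens meiosis in response to retinoic acid, had 15.62, 15.57 and 15.46 in IP14D-101 against 13.11, 13.10 and 12.74, 5.92-fold higher (2.56 ± 0.24, adjusted p = 7.92e-07). The groups did not overlap, and CL11 (13.36) and IP20D-3 (12.65) lay with IP14D-1. Rec8, a meiotic cohesin gene, was higher by 1.29 ± 0.30, and Sycp1, of the synaptonemal complex, was lower by -1.76 ± 0.62. Ankrd31, a gene of meiotic recombination, had 9.28, 9.26 and 8.74 against 13.79, 14.07 and 13.45, at least 6.54-fold lower, and it stood at 12.68 in CL11 and 13.38 in IP20D-3.

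Like Ankrd31, Cd99 was lowest in IP14D-101 among the ES and iPS lines, although Ankrd31 was also below background in MEF (8.85). This gene of a cell surface glycoprotein had 10.73, 11.56 and 10.70 in IP14D-101 against 14.86, 14.77 and 14.85 in IP14D-1, at least 12.1-fold lower (adjusted p = 7.43e-11), and its means were 14.21 in CL11, 15.15 in IP20D-3 and 15.97 in MEF. All 3 of its probe sets were lower. Among 18 genes listed for known differences between mouse strains, 6 were higher and 1 lower, with a median of 0.21 that was -0.27 without scaling. Nnt, a mitochondrial transhydrogenase gene that is partly deleted in a common C57BL/6 substrain, was above background in both lines and higher by 0.68 ± 0.10. Wdfy1 was higher by 0.95 ± 0.13 and Cd59a lower by -0.73 ± 0.22. Sequence differences between strains can change how RNA binds a probe, and their part in any of these values was not tested.

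Other named rises included genes of several roles. Hpdl, related to an enzyme of tyrosine breakdown, was 6.67-fold higher (2.74 ± 0.45), Hal, which degrades histidine, at least 4.42-fold, and the heparan sulfate proteoglycan gene Sdc4 4.34-fold (2.12 ± 0.12). Sema6c, a semaphorin gene, was 5.34-fold higher, Smtnl2 3.92-fold and Igsf21 at least 3.90-fold. Ctse, a cathepsin gene, was 6.36-fold lower. Of 39 interferon and class I MHC genes 4 were higher and 6 lower, near the shares over all genes. H2-K1, a class I gene that varies between strains, was higher by 0.40 ± 0.12, or -0.08 without scaling. Of 25 trophoblast genes 2 were higher and 2 lower (8% each), and of 30 neural genes 1 and 2 (3.33% and 6.67%). These shares lay below the 14.4% and 12.5% over all genes.

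A pair of lines with no array in common with the first, CL11 minus IP20D-3, gave 1830 genes higher (10.1%) and 1723 lower (9.47%). Of the 2613 genes higher in IP14D-101, 925 were higher in CL11 (35.4% of the first list and 50.5% of the second) and 126 lower (4.82% and 7.31%). Of the 2279 lower genes, 782 were lower in CL11 (34.3% and 45.4%) and 133 higher (5.84% and 7.27%). Across the 12008 genes above background in IP14D-101 or IP14D-1 the differences of the pairs correlated at r = 0.441, and across all 18193 at 0.252. Genes are not independent replicates, and the pairs share probe sets.

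**Figure D5:**
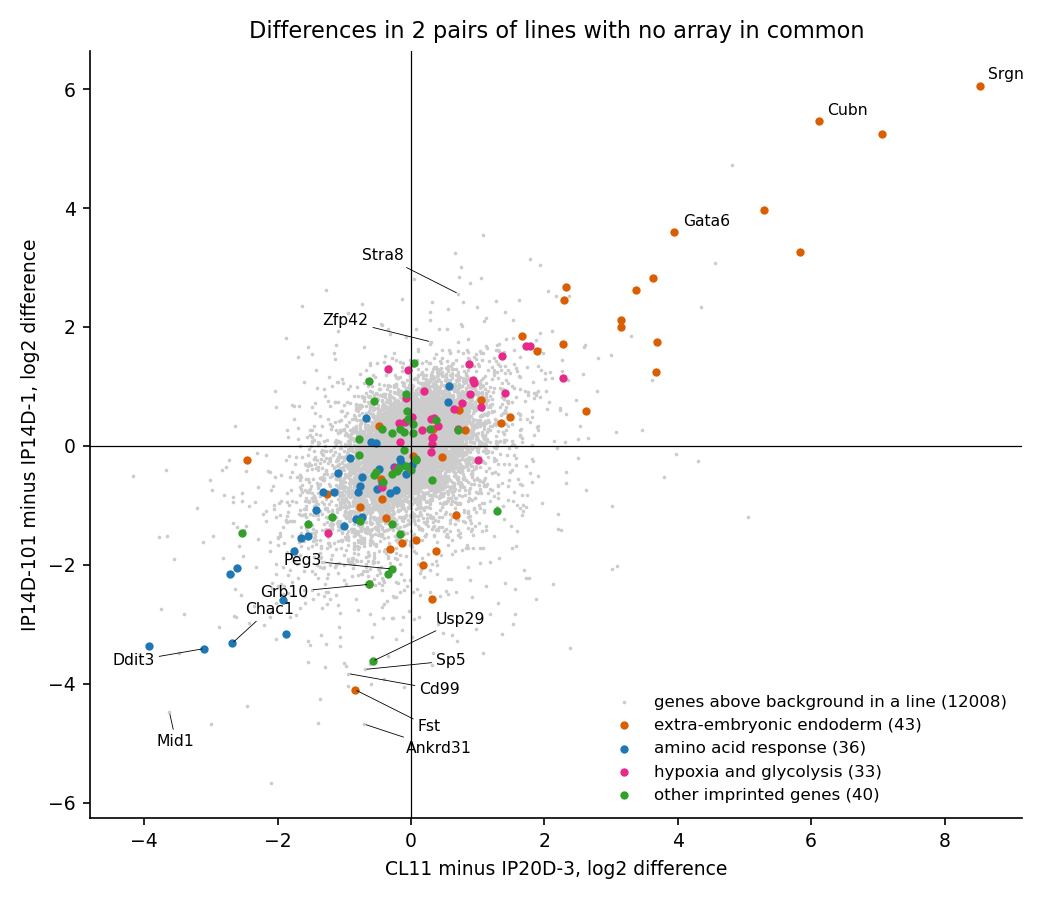
Difference between CL11 and IP20D-3 (horizontal axis) and between IP14D-101 and IP14D-1 (vertical axis), log2, for 12008 genes above background in IP14D-101 or IP14D-1. Endoderm genes such as Srgn and Cubn extend to the upper right and Ddit3, Chac1 and Mid1 to the lower left, while Cd99, Ankrd31, Grb10 and Peg3 differ mainly on the vertical axis.

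Each called gene was also placed by its level in the other lines. Of 2581 higher genes above background, 1278 (49.5%) had CL11 nearer IP14D-101 and IP20D-3 nearer IP14D-1, and 229 (8.87%) had the opposite. Both reference lines lay nearer IP14D-1 in 577 (22.4%), as for Zfp42 and Stra8, and nearer IP14D-101 in 497 (19.3%). Of 2141 lower genes the same placings held 1054 (49.2%), 176 (8.22%), 472 (22.0%) and 439 (20.5%), with Cd99, Peg3 and Grb10 among the 472 and Prss23 and Sp5 among the 439. These are counts of placings and carry no test.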

How the data were processed

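Expression was measured on Affymetrix mouse arrays, 3 arrays in each of 5 groups. The submitters' processing notes name MAS5 and Expression Console without versions, and the deposited values are a linear intensity per probe set. What the authors scaled them to is not stated, and no genome build is given in the sources used here. Of 45101 probe sets 64 controls were left out. Arrays were scaled to one 2% trimmed mean and taken as log2(signal + 16). With limma 3.58.1 in R 4.3.3, group means were fitted to all 15 arrays with a variance trend, and p values adjusted by Benjamini and Hochberg over 45037 probe sets. A gene was read through its single-gene probe set with the highest mean (34945 probe sets named a single gene, 932 several and 9160 none). Background came from 44 olfactory receptor probe sets. A bound sets the brighter mean against the dimmer group with its arrays raised to background. The number of arrays limits the precision.

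Genes named are the top 15 in each direction among called genes without overlap and with a brighter mean above background, ranked by the bounded difference with predicted genes passed over, up to 6 called and 3 other members of each list described, and a set of always eligible genes. Other members that complete a list, a pair or a pathway were named after their values were seen. The comparison, the 39 gene lists and the promoter motifs were chosen with earlier results of these data known. The fit was tested on simulated data. Alternatives were other scalings, pseudocounts, filters, probe set choices and fits, a replicate block, and leaving out each array.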

Additional observations from a re-analysis of the deposited data

How the results depend on the processing

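With arrays scaled to one median, 8853 probe sets and 5197 genes were higher and 3109 and 972 lower, 15 amino acid response genes, 9 other imprinted genes and 6 epithelial genes were lower, 40 oxidative phosphorylation genes were higher, and 12 pluripotency genes were higher and 3 lower. Without scaling, 624 probe sets and 340 genes were higher and 14217 and 5778 lower. Higher genes then numbered 0 of ER chaperones, 10 of hypoxia and glycolysis, 7 of cholesterol synthesis, 4 of fatty acid synthesis, 0 of oxidative phosphorylation, 7 of the cell cycle, 3 of pluripotency and 4 of the LIF pathway, and 11 pluripotency and 19 epithelial genes were lower. The log2 difference of H2-K1 (-0.08), the log2 difference of Ldha (-0.02), the log2 difference of Shc1 (-0.08) and the log2 difference of Sox2 (-0.48) were then below 0. Fitting the 6 arrays alone gave 11 higher pluripotency genes. Without a variance trend 11 ER and 15 oxidative phosphorylation genes were higher. With the largest-spread probe set per gene, 9 cholesterol genes were higher and 9 other imprinted genes lower, and Atp5g1 (-0.55), Ccnd3 (-0.55), Cox8a (-1.61), Ero1b (-0.46), Fdps (-1.09), Kdm5c (-2.28), Kdm6a (1.54), Peg3 (0.24), Rrm1 (-1.37) and Wdfy1 (-0.78) changed sign. None of these 10 passed there. The cause was not tested. Under the remaining alternatives other than leaving out an array, the counts named here stayed within 1.5 times. Without IP14D-1 replicate 2, 11 ER genes were higher and 6 epithelial genes lower, which lay beyond that range. Lists compared only across scalings moved as well: higher germ line genes numbered 10 under both median scaling and quantile normalization, and higher neural genes 5 and 4.

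Leaving out each array in turn gave 2031 to 2499 higher and 1714 to 2258 lower genes, and 3343 to 4015 and 4488 to 6505 probe sets. Higher members ranged from 19 to 20 for endoderm, 11 to 15 for ER chaperones, 19 to 21 for hypoxia, 11 to 16 for cholesterol, 13 to 13 for fatty acids, 17 to 25 for oxidative phosphorylation, 25 to 28 for the cell cycle, 5 to 7 for pluripotency and 10 to 11 for LIF. Lower members ranged from 17 to 22 for fibroblast, 8 to 9 for contractile, 11 to 12 for endoderm, 22 to 28 for amino acid response, 11 to 15 for other imprinted, 4 to 6 for pluripotency and 6 to 9 for epithelial genes. The lowest ER and epithelial counts came without IP14D-1 replicate 2. With the replicate number as a block, 2561 genes were higher and 2239 lower (4190 and 6179 probe sets). Same-numbered arrays of the lines deviated with correlations of -0.03, 0.05 and 0.05, and differently numbered arrays with correlations of -0.1 to 0.08. These values show no pairing by number. With so few arrays they cannot exclude that same-numbered cultures were handled together.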
